A study of Homo sapiens with 24 samples.

Results

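Kinesin motor genes were taken from the deposited count table as every protein coding row whose symbol begins with KIF or KIFC followed by a number. The rule gave 42 genes of 48162 in the table, of which 20312 are protein coding. All cells were PPC1, an established prostate cancer cell line, sequenced as bulk RNA in 4 conditions with 6 libraries each. UT were parental cells that received no treatment and were harvested on day 5 after plating on day 1. UT_LCL were parental cells given LCL521 at 5 μM on day 5, for 5 h until harvest (LCL521 is a pro-drug inhibitor of the lysosomal enzyme acid ceramidase). PGCC (polyploid giant cancer cells) had been irradiated with 8 Gy on day 2, were harvested on day 5 and were the cells that a 20 micron filter held back. PGCC_LCL were irradiated and filtered in the same way and had also received the same LCL521 exposure as UT_LCL. Parental cells were neither irradiated nor filtered, so the dose, the capture by size and the giant cell state cannot be told apart in any comparison of PGCC with parental cells. The question asked of the data was how the motors of the kinesin family differed between parental cells and PGCC, and whether LCL521 changed them.

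Kinesins are motor proteins that use ATP to move along microtubules or to take microtubule ends apart. One set works mainly in mitosis, where its members push spindle poles apart, move chromosomes, shorten microtubules and build the midzone on which the cell divides. Most genes of that set are transcribed in G2 and M phase. A second set carries vesicles, mitochondria and other cargo, mostly towards the cell periphery, and another serves cilia and centrioles. Giant cells that double their genome without dividing are known to pass through phases of DNA synthesis and incomplete mitosis, which is why motors of mitosis are of interest in them. In bulk RNA, fewer cells that express a gene and less of its RNA per cell cannot be told apart.

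The members were grouped by role into 15 mitotic kinesins, 14 cargo and axonal kinesins, 9 cilium and centriole kinesins and 4 other kinesins. At least 1 count was found in some library for 40 of the 42, and KIF2B and KIF19 had 0 counts in all 24 libraries. A count of 0 allows a level of up to 3 counts, which lay between 0.15 and 0.208 CPM per library, where CPM are counts scaled to a common library size. Library totals lay between 14835246 and 19906601 counts. The kinesins together took 21651 to 29700 counts in UT, 24249 to 28174 in UT_LCL, 36843 to 49650 in PGCC and 40052 to 48399 in PGCC_LCL. Identity of the line was checked by markers. KRT19, an epithelial keratin, held 8401 to 22430 counts per library over the 4 conditions and HOXB13, a prostate lineage factor, 5520 to 15212. HOXB13 was lower in PGCC, at 307 to 548 CPM against 570 to 882 in UT without overlap (log2 fold change -0.80 ± 0.13, edgeR adjusted p = 0.00021, and -0.82 ± 0.09 under LCL521), and its part in the kinesin changes was not tested. The prostate markers KLK3, KLK2 and FOLH1 had 0 counts in every library, and EPCAM, an epithelial surface marker, had 0 to 17.

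Promoter sequences are shown first, for mitotic kinesins that moved together and for KIF2A, which did not move with them. Genes of G2 and M phase are known to carry a cell cycle genes homology region (CHR) and, upstream of it, CCAAT boxes. RefSeq windows from 250 bases before to 50 bases after the start (GRCh38.p14) were available for 34 of the 42 members. The windows were searched on both strands for the CHR letters TTTGAA or TTCGAA and for CCAAT. Capitals mark these letters, or their reverse complement, in the 100 bases that end at the start.
KIF11 (chr10:92593030-92593129, plus strand): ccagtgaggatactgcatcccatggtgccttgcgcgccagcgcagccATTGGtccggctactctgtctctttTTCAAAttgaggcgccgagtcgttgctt
KIF4A (chrX:70290004-70290103, plus strand): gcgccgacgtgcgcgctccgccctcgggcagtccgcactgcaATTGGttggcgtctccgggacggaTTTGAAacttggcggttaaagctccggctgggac
KIF18A (chr11:28108157-28108256, minus strand): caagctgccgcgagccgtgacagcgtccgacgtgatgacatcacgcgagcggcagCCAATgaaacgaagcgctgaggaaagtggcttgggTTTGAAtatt
KIF23 (chr15:69414249-69414348, plus strand): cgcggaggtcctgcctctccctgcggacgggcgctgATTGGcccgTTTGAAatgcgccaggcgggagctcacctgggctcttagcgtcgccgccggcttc
KIF20A (chr5:138179012-138179111, plus strand): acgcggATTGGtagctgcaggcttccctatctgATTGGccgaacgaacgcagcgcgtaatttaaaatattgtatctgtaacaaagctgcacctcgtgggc
KIF2A (chr5:62306106-62306205, plus strand): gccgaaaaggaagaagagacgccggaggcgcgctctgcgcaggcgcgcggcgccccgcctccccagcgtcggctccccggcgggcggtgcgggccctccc

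KIF11, KIF4A, KIF18A and KIF23 show a CCAAT box followed by the CHR letters, KIF20A shows a pair of CCAAT boxes without CHR letters, and KIF2A shows neither. Over the whole windows, 11 of 15 mitotic kinesins (73.3%) held CHR letters, and 5336 of 27305 genes with a window (19.5%) held them. CHR letters and a CCAAT box were both present in 10 of the 15 (66.7%), against 7.85% of all genes. Their order and distance were not considered in these counts. Among cargo and axonal kinesins 1 of 9 held both, and this was KIF5B, the ubiquitous heavy chain of kinesin-1. In KIF5B the order was reversed, with CHR letters at -140 and the CCAAT box at -59 from the start. Among cilium and centriole kinesins 1 of 7 held both, and this was KIF24, a centriolar motor. KIF2A, KIF2B, KIF2C and KIF20A were the mitotic kinesins without CHR letters. KIF2A, KIF2B and KIF2C held no CCAAT box either, and of these KIF2C rose in PGCC with the other mitotic motors. KIF4B, which had at most 3 counts in any library, is among the 11 and the 10. E2F letters (TTTCCCGC, TTTCGCGC, TTTGCCGC or TTTGGCGC, both strands) were in 1 of 15 mitotic kinesins (6.67%) and in 3.99% of all genes. A match is a description of the letters and not a measured site.

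Counts passed the filter on low values for 32 members in the comparison of PGCC with UT. Of these, 20 passed the threshold of 0.05 on the adjusted p of edgeR's quasi-likelihood test, 17 higher and 3 lower in PGCC. Over all 13812 genes tested, 47.4% passed, 23.1% as higher and 24.3% as lower. In every PGCC library 15 members were above every UT library, where the share over all genes was 13.9%. The comparison under LCL521, made on separate libraries from the same 6 runs of the experiment, gave 18 of 32, 16 higher and 2 lower in PGCC_LCL than in UT_LCL. Its background was 48.9%, with 25.0% higher and 23.9% lower, and 16 members had no overlap upwards where 14.4% of all genes had none. In a fit blocked by replicate number, the counts were 23 (19 higher, 4 lower) and 22 (19 higher, 3 lower).

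Mitotic kinesins made up most of the members that rose. Of 15 listed, 13 were tested, and 12 of the 13 rose in PGCC with no overlap between the 6 PGCC and the 6 UT libraries, while KIF2A did not pass. The median log2 fold change of the 13 was 2.19, beside -0.03 over all genes tested. Under LCL521 the same 12 of 13 rose and the median was 2.21, beside -0.01. Their summed level was 165 CPM at the lowest, 245 at the median and 347 at the highest in UT, and 853, 939 and 1002 in PGCC. Under LCL521 the sums were 181, 211 and 355 in UT_LCL and 870.0, 955 and 1004 in PGCC_LCL. Mitotic motors thus held 10.2% to 20.5% of the kinesin signal in UT (median 15.8%) and 38.4% to 40.6% in PGCC (median 39.5%). The other 19 tested kinesins summed to between 1285 and 1452 CPM in UT and between 1364 and 1522 in PGCC, ranges that overlapped.

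**Figure D1:**
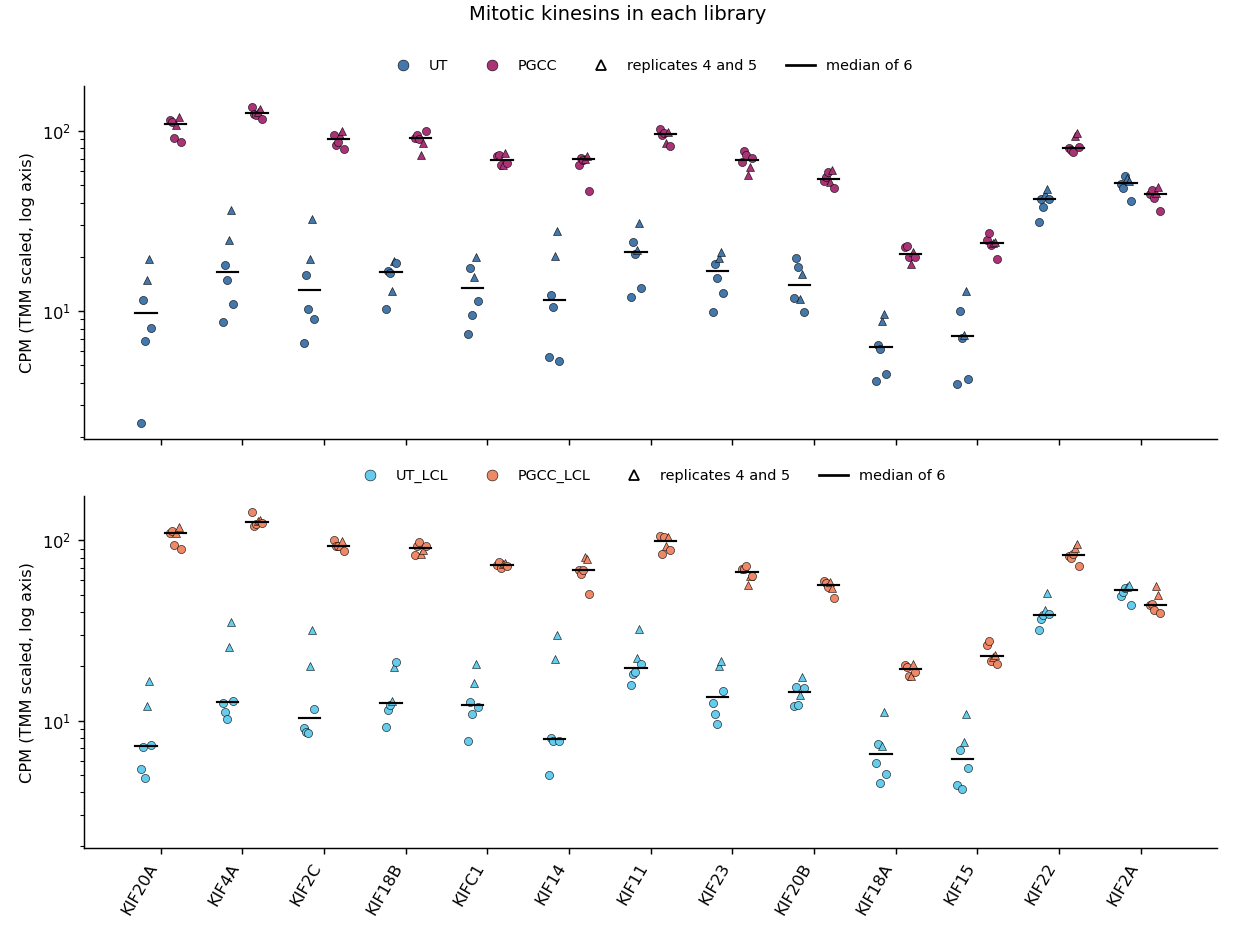
Level of the 13 tested mitotic kinesins in every library, in CPM on a log axis, for UT and PGCC (top) and for UT_LCL and PGCC_LCL (bottom), with black lines at the median of 6 and triangles for replicates 4 and 5. For 12 genes all PGCC points lie above all parental points, for KIF2A the points overlap, and parental points of replicates 4 and 5 are often the highest of their group.

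KIF20A, the motor that brings the chromosomal passenger complex to the midzone, rose most. It lay at 2.40 CPM at the lowest, 9.76 at the median and 19.6 at the highest in UT, and at 87.4, 110.1 and 119.5 in PGCC, so that the lowest PGCC library was above the highest UT library. The log2 fold change was 3.33 ± 0.35 (SE, n = 6 per condition, edgeR adjusted p = 4.6e-06), a 10.0-fold rise, and under LCL521 it was 3.59 ± 0.27 (edgeR adjusted p = 1.5e-07). The gene lies at chr5:137514408-137523404 on hg19, the build named in the submitters' processing notes. Further motors of the midzone and of cytokinesis rose with it. KIF23, the kinesin of the centralspindlin complex, went from 9.86, 16.8 and 21.2 CPM in UT to 56.8, 69.0 and 77.3 in PGCC. Its log2 fold change was 2.08 ± 0.17 (edgeR adjusted p = 5.2e-07), and 2.17 ± 0.18 under LCL521. KIF14, which binds the midzone protein PRC1 and citron kinase, went from 5.26, 11.5 and 27.7 CPM to 46.3, 69.5 and 72.9. That gave 2.27 ± 0.35 (edgeR adjusted p = 0.00012) and 2.38 ± 0.38 under LCL521. KIF20B, a midzone and abscission motor, went from 9.90, 13.9 and 19.6 CPM to 48.3, 54.2 and 60.8. Its log2 fold change of 1.93 ± 0.16 (edgeR adjusted p = 4.8e-07) was close to the 1.98 ± 0.11 found under LCL521.

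Motors that build the bipolar spindle rose by 1.65 to 2.37 on the log2 scale. KIF11 (Eg5), which slides spindle poles apart and is the target of kinesin-5 inhibitors, lay at 11.98, 21.3 and 30.8 CPM in UT and at 82.4, 96.3 and 102.9 in PGCC. Its log2 fold change was 2.19 ± 0.20 (edgeR adjusted p = 1.0e-06) and 2.21 ± 0.15 under LCL521. KIF15, which can share the work of KIF11, was less abundant, at 3.92, 7.24 and 12.9 CPM in UT and 19.4, 24.0 and 27.3 in PGCC. Its rise was 1.65 ± 0.25 (edgeR adjusted p = 0.0001) and 1.87 ± 0.21 under LCL521. KIFC1 (HSET), a minus end motor known to cluster surplus centrosomes, went from 7.51, 13.4 and 20.0 CPM to 65.0, 69.5 and 75.6. The change was 2.37 ± 0.20 (edgeR adjusted p = 7.4e-07) and 2.49 ± 0.19 under LCL521, without overlap between the groups.

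Chromosome arm motors differed in size of change. KIF4A, a chromokinesin that also works at the midzone, went from 8.71, 16.5 and 36.7 CPM in UT to 117, 126 and 135 in PGCC. Its log2 fold change was 2.74 ± 0.28 (edgeR adjusted p = 3.6e-06) and 2.87 ± 0.28 under LCL521. KIF4B, its intronless copy, had at most 3 counts in any library, and 4.66% of the 75 base stretches of the KIF4A transcript also occur in other transcripts, among them KIF4B. KIF22 (Kid), the other chromokinesin, was already present in parental cells at 31.3, 42.0 and 47.9 CPM and reached 76.2, 81.0 and 97.6 in PGCC. Its rise of 1.05 ± 0.11 (edgeR adjusted p = 3.2e-06) was the smallest among the 12, and was 1.11 ± 0.11 under LCL521.

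Motors that shorten microtubules split into those that rose and KIF2A. KIF2C (MCAK), which corrects faulty kinetochore attachments, went from 6.64, 13.1 and 32.3 CPM to 79.6, 90.6 and 100.7. The log2 fold change was 2.53 ± 0.31 (edgeR adjusted p = 1.6e-05) and 2.68 ± 0.30 under LCL521. KIF18A, which dampens chromosome movements at the metaphase plate, went from 4.08, 6.35 and 9.67 CPM to 18.2, 20.7 and 23.1, a change of 1.66 ± 0.20 (edgeR adjusted p = 1.2e-05), and of 1.51 ± 0.18 under LCL521. KIF18B, which limits astral microtubules, went from 10.3, 16.5 and 18.9 CPM to 73.7, 90.9 and 99.6. Its change was 2.52 ± 0.15 (edgeR adjusted p = 3.3e-08) and 2.66 ± 0.19 under LCL521. KIF2A, a depolymerase with work at spindle poles and also in cells that do not divide, lay at 40.9, 51.7 and 56.0 CPM in UT and at 35.8, 45.0 and 48.8 in PGCC, and the groups overlapped. Its log2 fold change was -0.20 ± 0.10 (edgeR adjusted p = 0.10), and with the replicate block it was -0.20 ± 0.07 (adjusted p = 0.038), lower in 6 of 6 same-numbered pairs. Under LCL521 it was -0.15 ± 0.10 (edgeR adjusted p = 0.22), with 5 of 6 pairs lower, and it passed in 2 blocked settings, with a gene length correction (-0.19, edgeR adjusted p = 0.044) and without replicates 4 and 5 (-0.21, edgeR adjusted p = 0.047). KIF2B, the remaining depolymerase of this subfamily, had no counts.

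Replicates 4 and 5 stood apart from the other runs in several kinesins. For 6 of the 13 mitotic kinesins (KIF2C, KIF4A, KIF14, KIF20A, KIF22 and KIF23) both libraries lay above the other 4 in UT and again in UT_LCL, a split shown by 19.6% of all genes tested, and by a further 19.6% downwards. KIF14 was at 20.2 and 27.7 CPM in UT replicates 4 and 5 and at 5.26 to 12.4 in the others. In PGCC the same split was seen for 2 of 13 upwards and 2 of 13 downwards, where all genes gave 22.2% and 18.9%. Without replicates 4 and 5, 12 of 13 mitotic kinesins still rose in PGCC and the median log2 fold change was 2.44, and 2.55 under LCL521. The libraries of parental cells were also the more variable ones. Over the 12 mitotic kinesins that rose, the median SD of log2 CPM was 0.53 in UT and 0.47 in UT_LCL, and 0.14 in PGCC and 0.12 in PGCC_LCL. Over all genes the median SD was 0.29 in UT, 0.28 in UT_LCL, 0.20 in PGCC and 0.19 in PGCC_LCL. KIF21A, a cargo motor, showed the split between runs in all 4 conditions and in the opposite direction, as did 6.62% of all genes. It lay at 26.4 to 30.8 CPM in UT replicates 4 and 5 against 43.8 to 54.4 in the others. In PGCC it lay at 28.8 to 32.0 against 45.9 to 53.8. KIF13B and KIF22 were higher in replicates 4 and 5 than in the others in all 4 conditions, as were 6.15% of all genes. What set these runs apart is not given in the labels, and its part in the results was not tested.

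Cargo and axonal kinesins included 11 tested genes, of which 4 rose and 0 fell in PGCC, with a median log2 fold change of 0.30. The shares over all genes tested were 23.1% higher and 24.3% lower. KIF3C, a kinesin-2 subunit best known from neurons, had the largest change outside the mitotic set. It lay at 6.15, 7.34 and 9.85 CPM in UT and at 33.3, 40.1 and 49.6 in PGCC, with no overlap. The log2 fold change was 2.37 ± 0.15 (edgeR adjusted p = 5.5e-08), a 5.18-fold rise, and 2.27 ± 0.13 under LCL521 (edgeR adjusted p = 1.5e-08). It lies at chr2:26149471-26205618 (hg19), and its RefSeq window held neither CHR letters nor a CCAAT box. KIF5C, a kinesin-1 heavy chain enriched in neurons, went from 52.1, 55.6 and 59.9 CPM to 82.6, 102.8 and 125.6, again without overlap. Its change was 0.89 ± 0.10 (edgeR adjusted p = 1.0e-05) and 0.94 ± 0.11 under LCL521. KIF1B, a motor of mitochondria and synaptic vesicle precursors, went from 55.4, 65.8 and 76.8 CPM to 76.8, 102.5 and 119.3, where a pair of libraries touched. It rose by 0.59 ± 0.12 (edgeR adjusted p = 0.00085) and, under LCL521, by 0.74 ± 0.10 (edgeR adjusted p = 2.6e-05).

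KIF13B, which carries phosphoinositide and scaffold cargo, was the least stable of these calls. It lay at 5.54, 7.11 and 18.7 CPM in UT and at 14.7, 18.0 and 23.5 in PGCC. The groups overlapped because both UT libraries of replicates 4 and 5 were high. These replicates were also the highest in PGCC, at 21.6 and 23.5 CPM against 14.7 to 18.3 in the others. The change was 0.83 ± 0.30 (edgeR adjusted p = 0.033), higher in 6 of 6 same-numbered pairs, and 1.35 without replicates 4 and 5 (edgeR adjusted p = 2.0e-06). The call was lost when replicate 1, 2, 3 or 6 was left out, with edgeR adjusted p between 0.064 and 0.099. Under LCL521 it was 0.70 ± 0.29 (edgeR adjusted p = 0.055), and 0.83 ± 0.17 with the replicate block (adjusted p = 0.0028). The remaining cargo motors that passed the filter did not pass the test in either comparison. They were KIF1C, KIF5B, KIF13A, KIF16B, KIF21A, KIFC2 and KIFC3, with log2 fold changes from -0.16 (KIF13A) to 0.37 (KIFC2) in PGCC against UT. KIF5B, at 179.8, 237 and 251 CPM in UT and 179, 233 and 254 in PGCC, differed by -0.03, with a 95% interval from -0.27 to 0.20. KIFC2 and KIFC3 passed with the replicate block (0.41 and 0.31, adjusted p = 0.012 and 0.014). Under LCL521 they passed with the block as well (0.39 and 0.28, edgeR adjusted p = 0.046 and 0.025). KIFC2 shares 20.5% of its 75 base stretches with other transcripts, and its gene model overlaps FOXH1. KIF1A, KIF5A and KIF21B, motors known chiefly from neurons, had at most 5, 5 and 2 counts in any library and were not tested.

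**Figure D2:**
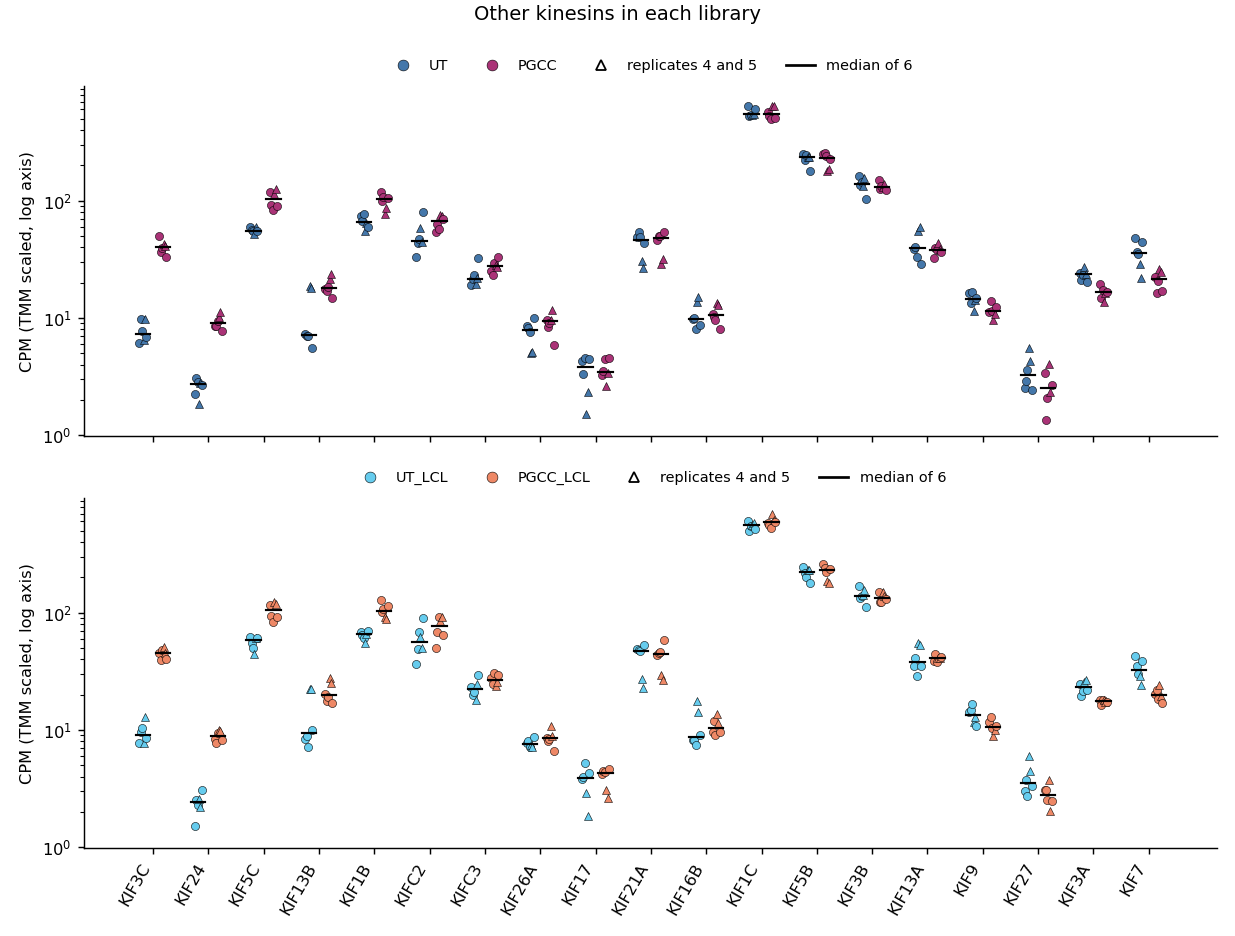
Level of the 19 tested kinesins outside the mitotic set in every library, in CPM on a log axis, for UT and PGCC (top) and UT_LCL and PGCC_LCL (bottom), with black lines at the median of 6 and triangles for replicates 4 and 5. KIF3C, KIF24 and KIF5C lie wholly higher in PGCC, KIF3A wholly lower, and KIF21A and KIF13B fall into separate levels by replicate in all 4 conditions.

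Of 7 tested cilium and centriole kinesins, 1 rose and 3 fell in PGCC, with a median log2 fold change of -0.32, where 24.3% of all genes fell. Under LCL521, 1 rose and 2 fell, with a median of -0.30. KIF24, which restrains cilium assembly at the mother centriole, was the member that rose. It was rare, at 1.86, 2.75 and 3.08 CPM in UT and 7.69, 9.01 and 11.2 in PGCC, without overlap. Its log2 fold change was 1.85 ± 0.15 (edgeR adjusted p = 5.9e-07) and 1.94 ± 0.17 under LCL521 (edgeR adjusted p = 4.8e-07). KIF7, the ciliary regulator of Hedgehog signalling, fell. It lay at 21.8, 35.7 and 47.8 CPM in UT and at 16.2, 21.4 and 26.0 in PGCC, and the groups overlapped. Its change was -0.75 ± 0.18 (edgeR adjusted p = 0.0031), -1.09 without replicates 4 and 5, and -0.70 ± 0.13 under LCL521 (edgeR adjusted p = 0.0006), where the groups did not overlap. KIF7 overlaps TICRR on the opposite strand and shares 4.74% of its 75 base stretches with it, and the strand setting of the counting is not given in the sources used here.

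KIF3A, a kinesin-2 subunit that drives transport into the cilium, also fell. It lay at 20.3, 23.6 and 27.0 CPM in UT and at 13.6, 16.5 and 19.3 in PGCC, with every PGCC library below every UT library, which held for 12.9% of all genes. The change was -0.50 ± 0.11 (edgeR adjusted p = 0.0019) and -0.39 ± 0.09 under LCL521 (edgeR adjusted p = 0.0036). KIF9, a motor of motile cilia, was at 11.6, 14.5 and 16.7 CPM in UT and 9.62, 11.4 and 13.9 in PGCC, with overlap. Its change of -0.32 ± 0.12 was just past the threshold (edgeR adjusted p = 0.046) and lost the call in 9 of 17 other settings, among them those without replicate 1, 3, 5 or 6 (edgeR adjusted p between 0.078 and 0.15), and under LCL521 it was -0.30 ± 0.13 (edgeR adjusted p = 0.068). KIF9 shares 7.01% of its 75 base stretches with its antisense neighbour KIF9-AS1. KIF3B, KIF17 and KIF27 did not pass in either comparison, with changes of -0.06, 0.11 and -0.42 in PGCC against UT. KIF27 counts are uncertain, because 24.5% of its 75 base stretches also occur in other transcripts. KIF6 had at most 1 count and KIF19 none.

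Among the 4 other kinesins only KIF26A, which lacks ATPase activity and regulates signalling in the gut nervous system, was tested, and it did not pass (0.29 ± 0.20, edgeR adjusted p = 0.23). Its value was -0.05 without replicates 4 and 5, and 0.49 without replicate 6 (edgeR adjusted p = 0.044). KIF26B had at most 14 counts in any library, and KIF12 and KIF25 at most 1. Together with KIF1A, KIF2B, KIF4B, KIF5A, KIF6, KIF19 and KIF21B these 3 made up the 10 members that were not tested.

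**Figure D3:**
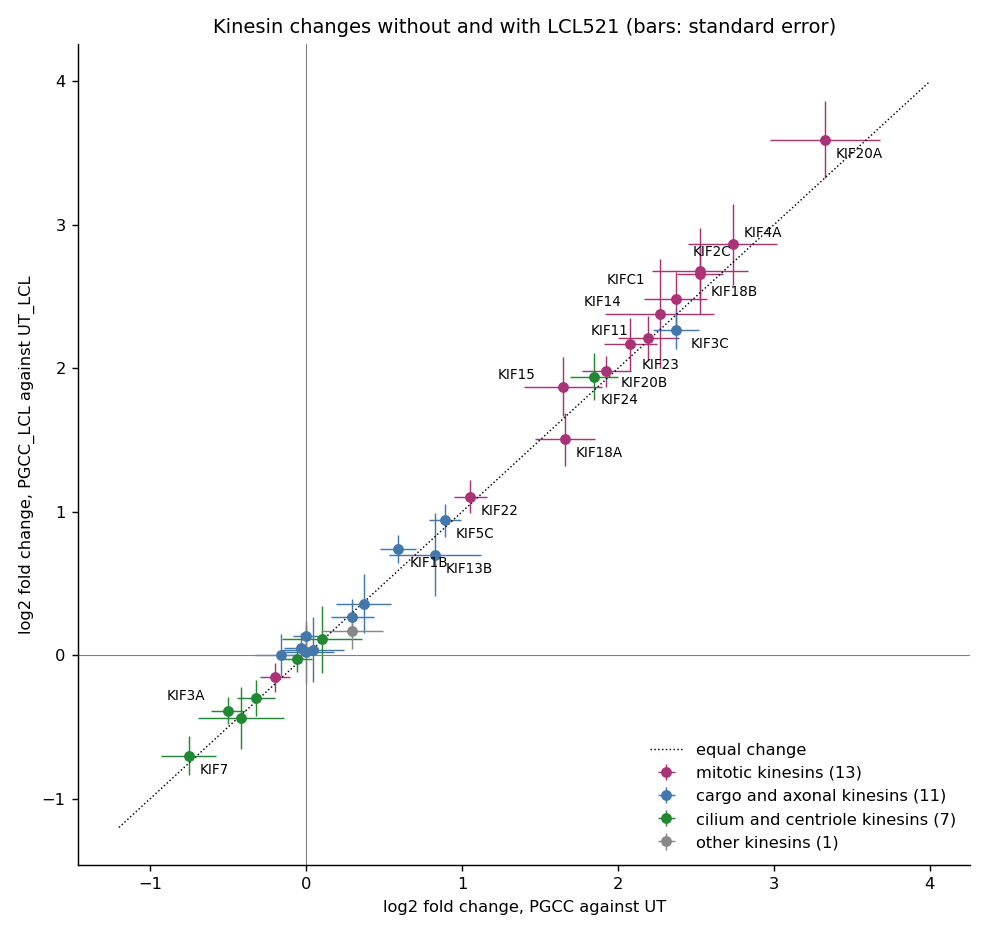
Log2 fold change of the 32 tested kinesins in PGCC against UT (x axis) and in PGCC_LCL against UT_LCL (y axis), coloured by role, with bars of 1 standard error and a dotted line of equal change. The 12 mitotic kinesins that rose lie between 1.05 and 3.33 on the x axis, KIF3C and KIF24 lie among them, and the remaining genes lie near or below 1.

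Balance within subfamilies was described as the log2 ratio of counts per kilobase of gene length between members in the same library. A prior count of 2 was added to each count, and no scaling between libraries was used. KIF3C stood at -1.34 relative to KIF3A at the median of UT and at 1.52 in PGCC, so that the order of these kinesin-2 genes turned over, with no overlap between the conditions. Relative to KIF3B, the more abundant kinesin-2 motor, KIF3C went from -3.92 to -1.59 and stayed the lower of the pair. KIF2C relative to KIF2A went from -1.70 to 1.24, and this order turned over too. KIF20B relative to KIF20A went from -0.49 (lowest library -1.37, highest 1.22) to -2.02. KIF5C relative to KIF5B went from -2.27 to -1.44, and KIF13B relative to KIF13A from -2.62 to -1.36, again with no overlap. KIF3B relative to KIF3A went from 2.70 to 3.06, also with no overlap. Ratios of KIF1C to KIF1B and of KIF18B to KIF18A overlapped between the conditions. Under LCL521 the ratios of KIF3C to KIF3A, KIF3C to KIF3B, KIF2C to KIF2A, KIF20B to KIF20A and KIF5C to KIF5B were again apart. Those of KIF13B to KIF13A and of KIF3B to KIF3A overlapped under LCL521.

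**Figure D4:**
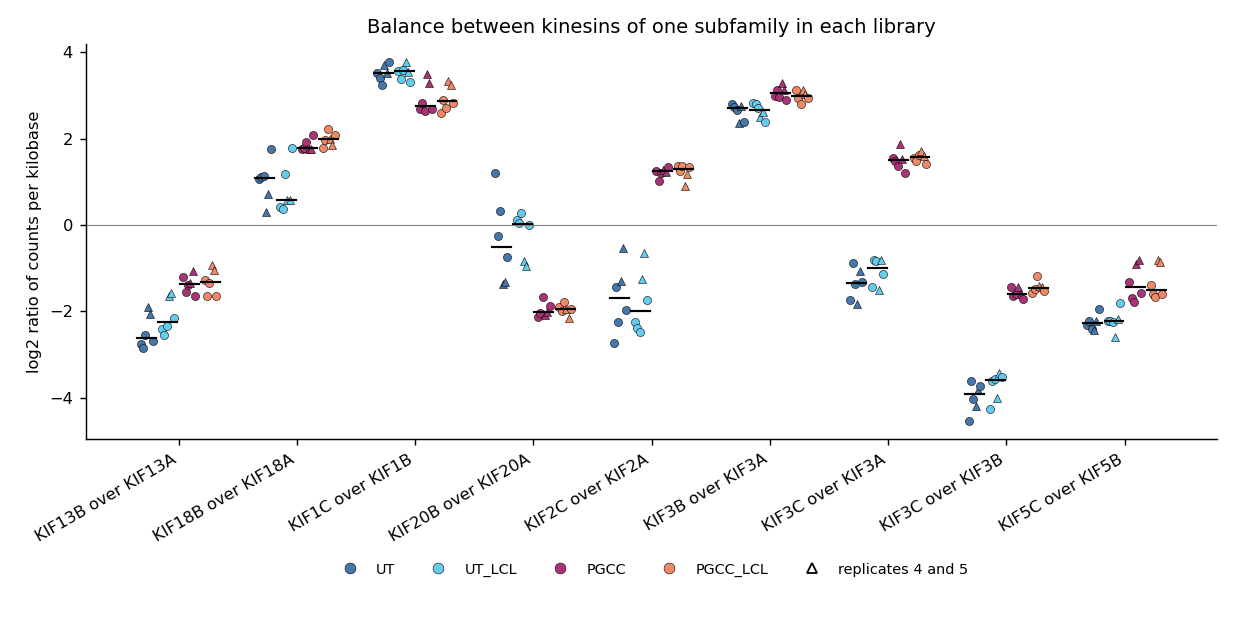
Log2 ratio of counts per kilobase between kinesins of the same subfamily, for each of the 24 libraries, with black lines at the median of 6 and triangles for replicates 4 and 5. KIF2C over KIF2A and KIF3C over KIF3A pass from below 0 in parental cells to above 0 in PGCC.

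Levels between genes were compared as CPM per kilobase of gene length. In parental cells the most abundant kinesin was KIF1C, a motor of vesicle transport, at 69.1 CPM per kilobase at the median of UT (66.7 to 80.3), followed by KIF5B at 40.3 (30.6 to 42.6) and KIF3B at 22.8 (17.0 to 26.6). Neighbours among these did not overlap in range. KIF22 followed at 16.8 (12.5 to 19.1) and KIF2A at 15.4 (12.2 to 16.7), which overlapped each other. KIF22 also overlapped KIF3B, and so did KIFC2 at 12.5 (9.13 to 21.8). In UT replicate 6 KIFC2 was above KIF3B. In PGCC KIF1C and KIF5B had the highest medians again, at 69.3 and 39.7. KIF20A, in place 21 of 42 in UT, was in place 3 in PGCC at 34.4 (27.3 to 37.3). It was followed by KIF22 at 32.3, KIF2C at 30.7 and KIF4A at 28.9, and the ranges of these 4 overlapped. KIF5B, at 30.4 to 43.2, overlapped them as well, and KIF20A was above KIF5B in 2 of 6 PGCC libraries, those of replicates 4 and 5. KIF7 went from place 8 to place 24.

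Kinesins outside the symbol rule and other genes of the pathway were described from lists. CENPE, the kinetochore kinesin-7 that carries chromosomes to the metaphase plate, lay at 4.85, 9.93 and 32.1 CPM in UT and at 45.5, 57.9 and 64.8 in PGCC, and rose by 1.92 ± 0.41 (edgeR adjusted p = 0.0016). STARD9, a centrosomal kinesin, lay at 2.62, 4.24 and 4.88 CPM in UT and at 2.48, 3.67 and 7.16 in PGCC, and did not pass (-0.03 ± 0.25, edgeR adjusted p = 0.93), while without replicates 4 and 5 it was lower (-0.51, edgeR adjusted p = 0.045). For the lists that follow, 23.1% of all genes tested rose in PGCC against UT and 24.3% fell, with a median log2 fold change of -0.03. Partners of the mitotic kinesins rose in 16 of 17 cases, with a median log2 fold change of 2.07. They included ANLN, a cytokinesis scaffold (3.07 ± 0.17), and CIT, citron kinase (2.87 ± 0.34), and the exception was NUMA1 (-0.18 ± 0.23). Genes of G2 and M phase that encode no motor rose in 20 of 20 cases (median 2.19), and S phase genes in 14 of 20 with 1 lower (median 0.94). The largest rises were those of MYBL2 (3.20 ± 0.20) and BUB1 (2.57 ± 0.28) among the former and of CDC45 (2.82 ± 0.19) and RRM2 (2.74 ± 0.29) among the latter. Of the S phase genes, MCM6 was the gene called lower (-0.40 ± 0.12). CCNE2 had the lowest value (-0.83) but was not called, at 1.51 to 27.0 CPM in UT and 6.26 to 11.8 in PGCC. Without replicates 4 and 5, 16 S phase genes were called higher and 2 lower, with a median of 0.67. The summed level of the G2 and M phase genes moved with that of the mitotic kinesins, from 301, 539 and 895 CPM in UT to 2114, 2374 and 2709 in PGCC, and its part in the kinesin changes was not tested.

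Transport partners were set against the shares over all genes, of which 23.1% rose and 24.3% fell. Of 15 tested kinesin light chains and cargo adaptors, 5 rose and 2 fell in PGCC (median 0.03). The light chains KLC1 and KLC2 went in opposite directions, at 0.65 ± 0.09 (edgeR adjusted p = 5.8e-05) and -0.75 ± 0.09 (edgeR adjusted p = 2.3e-05). SPAG9, an adaptor of kinesin-1, rose by 0.82 ± 0.09, and RHOT1, which anchors the motor to mitochondria, changed by -0.65 ± 0.13. Of 25 tested subunits of cytoplasmic dynein and dynactin, the minus end motor complex, 3 rose and 6 fell (median -0.11), and with the replicate block 4 rose and 10 fell. DYNC1I1, an intermediate chain known from neurons, had the largest rise (2.20 ± 0.27, edgeR adjusted p = 1.8e-05) and DYNLT3, a light chain, the next (1.05 ± 0.11). DYNC1I1 was rare, at 0.55 to 1.63 CPM in UT and 3.16 to 5.39 in PGCC. ACTR1B and BICD2 had the largest falls, at -0.49 ± 0.11 and -0.40 ± 0.11. Of 19 tested intraflagellar transport genes, whose trains are pulled by kinesin-2, 3 rose and 7 fell (median 0.01). TTC21B (0.69 ± 0.15) and IFT81 (0.47 ± 0.17) had the largest rises, and WDR35 (-0.77 ± 0.11) and IFT140 (-0.74 ± 0.19) the largest falls. Leukocyte and fibroblast markers were examined for other cell types. Summed over their lists they lay at 0.406 to 2.74 and 5.75 to 13.8 CPM in UT and at 2.51 to 4.32 and 7.88 to 11.6 in PGCC, and of 4 leukocyte markers 3 were at 0 in all UT libraries. PTPRC, a pan-leukocyte marker, lay at 0.633 CPM at the median of UT and 3.02 of PGCC, and rose (1.39 ± 0.43, edgeR adjusted p = 0.016). LYZ, lysozyme, had 0 counts in every parental library and 3 to 5 in each PGCC library. Of the fibroblast markers, COL1A1 lay at 5.54 to 13.2 CPM in UT and 5.01 to 8.18 in PGCC. PDGFRA, a growth factor receptor, rose from 0.058 to 1.16 CPM in UT to 2.76 to 3.39 in PGCC without overlap (2.10 ± 0.36, edgeR adjusted p = 0.00027, and 2.03 ± 0.38 under LCL521). The part of these markers in the kinesin changes was not tested.

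LCL521 was then examined within each population. In parental cells 0 of 32 members passed in UT_LCL against UT, as did 0.0% of the 13277 genes tested, and 0 members reached an unadjusted p under 0.05 with edgeR or DESeq2. In PGCC 0 of 32 members passed in PGCC_LCL against PGCC, where the background was 0.00707%, and again 0 had an unadjusted p under 0.05 with edgeR or DESeq2. With the replicate block the members called stayed at 0 in both populations, where 0.866% and 1.65% of all genes passed, and 3 and 7 members had an unadjusted p under 0.05. The difference between the responses was tested as an interaction on all 24 libraries, and 0 of 32 members and 0.0% of all genes passed, with 0 members at an unadjusted p under 0.05 with edgeR or DESeq2. The blocked 95% intervals of all 32 members lay between -0.51 and 0.52 in parental cells and between -0.26 and 0.45 in PGCC. For the 12 mitotic kinesins called higher in PGCC than in UT they lay between -0.51 and 0.31 and between -0.24 and 0.16. A change within these bounds was not told from 0 by the adjusted test with 6 libraries per condition.

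KIF3C and KIFC2 had the smallest p-values in parental cells in the fit without the replicate block. In the blocked fit KIF3C was higher by 0.29 ± 0.09 (edgeR adjusted p = 0.17), in 5 of 6 same-numbered pairs, and KIFC2, a minus end motor known from neurons, by 0.22 ± 0.06 (edgeR adjusted p = 0.091), in 6 of 6 pairs. KIFC2 passed in a single setting, where the blocked fit also carried a gene length correction (0.22, edgeR adjusted p = 0.042). In PGCC the smallest in the fit without the block were those of KIF3C and KIF18A. With the block KIF3C was higher by 0.16 ± 0.05 (edgeR adjusted p = 0.13), in 5 of 6 pairs. KIF18A was at -0.12 ± 0.06 (edgeR adjusted p = 0.34), with 0 of 6 pairs higher. A ranking by the blocked p is not given here.

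**Figure D5:**
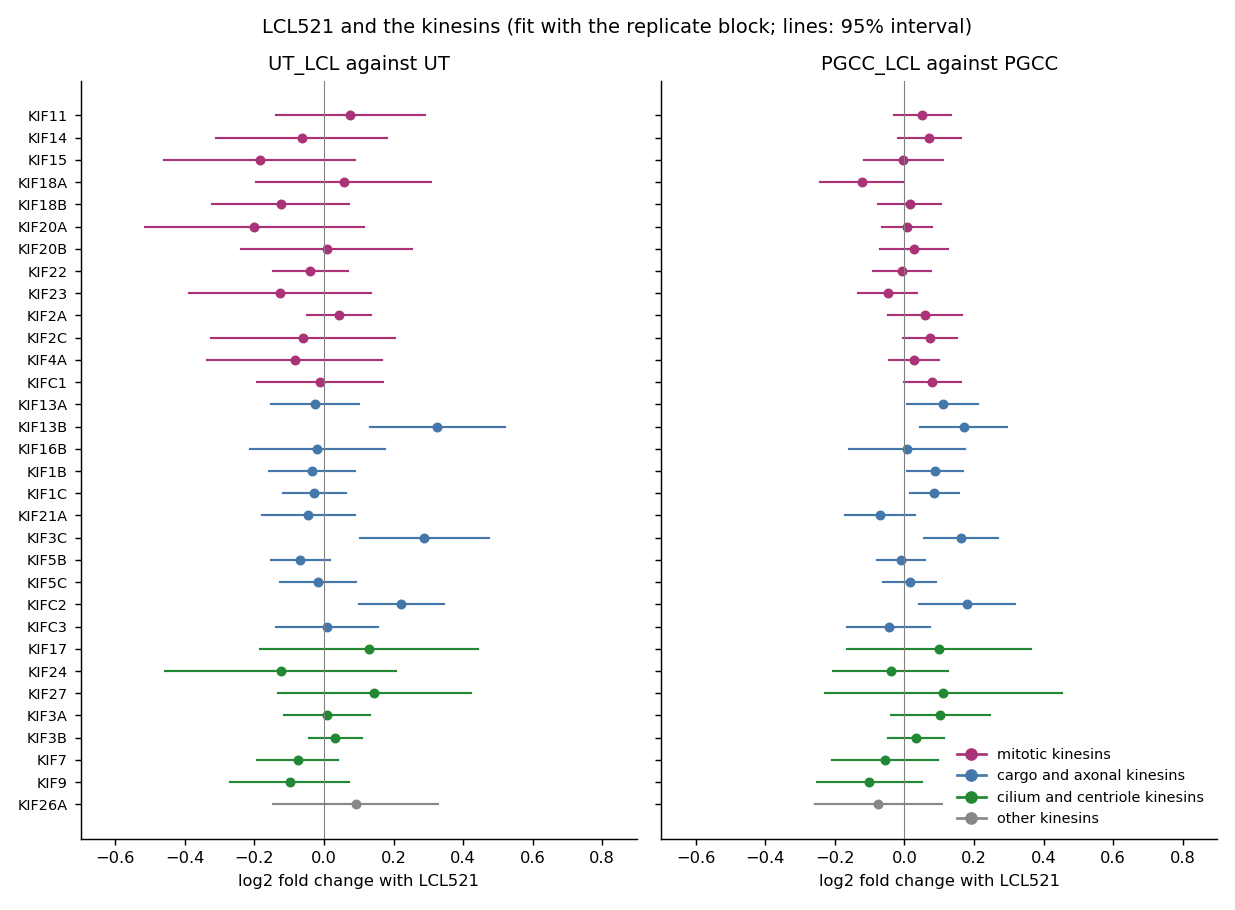
Log2 fold change with LCL521 for the 32 tested kinesins in parental cells (left) and PGCC (right) from the fit with the replicate block, as points with 95% intervals, coloured by role. All intervals lie within -0.51 and 0.52 on the left and within -0.26 and 0.45 on the right.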

How the data were processed

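Per the labels and the supplementary methods, the authors sequenced random-primed libraries of PPC1 RNA. Paired-end reads were aligned with STAR, and the deposited values are whole-number read counts per gene made with HTSeq, without normalization. The submitters' processing notes name CASAVA, STAR, HTSeq, DESeq2 and hg19. The annotation release and strand setting are not given in the sources used here. Gene lengths are the authors' column.

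Counts of all genes were analysed in R 4.3.3 with edgeR 4.0.16: filterByExpr (minimum count 10, minimum total 15), TMM scaling, and the quasi-likelihood test on the 12 libraries of each comparison, with the Benjamini-Hochberg method over all genes tested and a threshold of 0.05. Standard errors are the size of the log2 fold change divided by the square root of F. CPM are TMM scaled, log2 CPM carry a prior count of 2, and intervals are at the 95% level. Alternatives used limma 3.58.1 and DESeq2 1.42.0. The floor of 3 counts covers counting error only.

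The conditions were harvested in parallel in 6 runs, and same-numbered libraries deviated together: the median correlation across genes was 0.344 for PGCC against UT, 0.272 under LCL521, 0.652 for UT_LCL against UT and 0.532 for PGCC_LCL against PGCC, above 0.1 in every pair. Libraries of the same condition differed beyond counting noise (chi-square per degree of freedom 4.69 to 110 in 60 pairs).

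Named genes were every tested mitotic kinesin and the other members past the threshold in a comparison of PGCC with parental cells. Also named were the members with the smallest p for LCL521 in the fit without the block, and the largest changes of each further list. Members and lists were chosen with earlier results of these data known. KIF13B, KIF21A and KIF5B were described further after their values were seen. Shared stretches of 75 bases were counted against GENCODE transcripts. The procedure was tested on simulated data. Values of some marker genes are not reported here.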

Additional observations from a re-analysis of the deposited data

Results flagged for a closer look

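Of 128 groups of 6 libraries examined over the 32 tested kinesins, 3 held a library far from the other 5. This share is below the about 1 in 20 groups that chance gives. KIF5B was at 179.8 CPM in UT replicate 6, the lowest of its group. KIFC3 was at 32.5 CPM in UT replicate 6, the highest of its group. KIF14 was at 46.3 CPM in PGCC replicate 6, the lowest of its group. All 3 values came from libraries numbered 6.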

How the results depend on the processing

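With the replicate block, 23 members were called in PGCC against UT and 22 under LCL521, where the fits without it called 20 and 18, and KIF2A, KIFC2 and KIFC3 were gained in the first. Leaving out each replicate in turn gave 18 to 21 and 18 to 20 members, and 0 for LCL521 in both populations. The median of the mitotic kinesins then lay between 2.05 and 2.34, and between 2.11 and 2.34 under LCL521. Leaving out replicates 4 and 5 gave 19 and 19 members. In UT_LCL against UT, the block with a correction for gene length called 1 member. No kinesin called in PGCC against UT or under LCL521 changed direction. Of those not called, 8 and 5 took the other sign in some setting, at values between -0.05 and 0.14 and between -0.08 and 0.03, and none of these turned values was called. Under LCL521, KIF13B gained the call in 11 settings, KIF9 in 4 and KIF2A in 2, and KIF5B (0.22) and KIF13A (0.25) passed in the blocked fit without replicates 4 and 5. KIFC2 and KIFC3 also passed under LCL521, among other settings with the replicate block and without replicate 6. Over all genes, the block moved the calls for LCL521 from 0 to 115 in parental cells and from 1 to 234 in PGCC, and with the length correction to 234 and 260. Scaling by library totals moved the split in PGCC against UT from 3186 higher and 3355 lower to 3820 and 2521, and 20 members stayed called in number. Depth limits KIF24, KIF17 and KIF27, and the 10 untested members. The cause of these shifts was not tested.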
